A study of Mus musculus with 24 samples.

Results

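The interferon-induced proteins with tetratricopeptide repeats (IFIT) and the interferon-induced transmembrane proteins (IFITM) are families of antiviral proteins that mouse macrophages make in response to type I interferon. The members described here were the genes whose symbol was *Ifit1*, *Ifit2*, *Ifit3*, *Ifit3b*, *Ifitm1*, *Ifitm2*, *Ifitm3* or *Ifitm6* in both expression tables, which are 8 of 56691 genes, 4 of each family. All 8 had a value above 0 in at least 1 of the 12 libraries of each cell type and were tested in both. RNA-seq was carried out on RAW264.7 cells, a mouse macrophage cell line, and on bone marrow-derived macrophages (BMDMs), macrophages grown from mouse bone marrow. Each cell type gave 4 groups of 3 libraries, namely wild type with PBS, *Olfml3* knockout with PBS, wild type with LPS, and *Olfml3* knockout with LPS, where LPS (bacterial lipopolysaccharide) was given at 100 ng/mL for 4 h. According to the methods of the study, the RAW264.7 knockout was made by CRISPR-Cas9 and grown from a single-cell clone, so that the knockout and the clone cannot be told apart, and the BMDMs came from male C57BL/6 mice, aged 8 weeks, with a global *Olfml3* deletion or without it. The study calls the libraries of a group biological replicates, without saying whether each came from its own culture or mouse, so p-values measure the spread between these libraries.

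IFIT proteins sit in the cytoplasm and bind RNA. Ifit1 recognises RNA whose cap lacks the methyl mark that host messenger RNA carries, Ifit2 binds AU-rich RNA, and Ifit3 is a partner protein that joins complexes with the other family members. IFITM proteins sit in membranes and hinder the fusion of viral and cellular membranes, Ifitm3 mostly in endosomes and Ifitm1 mostly at the cell surface. LPS engages Toll-like receptor 4, which leads to transcription of interferon beta (*Ifnb1*), and secreted interferon then activates transcription factors that bind the interferon-stimulated response element (ISRE) of its target genes. Some IFIT genes can also be switched on by IRF3 without interferon.

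Each library held 11638273 to 16478616 counts in RAW264.7 and 17121240 to 22873094 in BMDMs. *Olfml3*, the targeted gene, was at 71 to 88 counts in wild-type BMDMs with PBS and at 1 to 4 in the knockout, and with LPS at 33 to 35 against 0 to 1. In RAW264.7 its RNA was higher under the knockout label. With PBS it had 12 to 16 counts in wild type and 66 to 105 in the libraries labelled knockout, and with LPS 10 to 26 against 1357 to 1524. According to the study, clones were genotyped at each allele by Sanger sequencing, and RNA counts do not show whether the protein is lost. Because of the higher RNA, these RAW264.7 libraries are called "labelled knockout" throughout. Replicate 1 labelled knockout with PBS stood apart, with a mean correlation of 0.936 with its own group and 0.957 with wild type with PBS over 11336 genes, and the called differences of members that rest on it are given with and without it. Of 8 macrophage markers, all were at 1 FPKM (fragments scaled by exonic length and library total) or more in BMDMs and 7 in RAW264.7, where *Mertk* had no count. Their summed level was 14900 to 15300 FPKM in wild-type BMDMs and 16600 to 17800 in the knockout with PBS, and 12400 to 12600 against 12900 to 13200 with LPS. *Lyz2* carried this sum, at 12310 ± 181 FPKM in wild type and 14940 ± 662 in the knockout with PBS, while 6 of the 8 markers had a lower mean in the knockout, of which *Fcgr1* was called (118 ± 9.58 to 53.4 ± 2.10 FPKM, -1.15). In RAW264.7 it was 3340 to 3400 against 1140 to 1420 in the labelled knockout with PBS, and 3880 to 4010 against 1220 to 1280 with LPS. With PBS *Lyz2*, *Cd14*, *Itgam* and *Adgre1* were called lower, *Lyz2* from 2052 ± 22.5 to 317 ± 79.6 FPKM, while *Csf1r* (263 ± 7.91 to 340 ± 22.2) and *Fcgr1* (18.3 ± 0.996 to 22.1 ± 3.59) had higher means that were not called. The part of these markers in the results on RAW264.7 was not tested. *Cd3e*, *Cd3d* and *Cd8a* of T cells and *Ly6g* and *Retnlg* of neutrophils were at 0 counts in BMDMs, while *Cd4* stood at 3.30 to 8.58 FPKM and the 8 neutrophil markers summed to 5.33 to 8.61. Markers of natural killer, B and erythroid cells summed to at most 0.40 FPKM in any library, and those of fibroblasts to at most 1.44. Dendritic cell markers summed to 1.08 to 1.36 FPKM in wild-type RAW264.7 with PBS and 8.66 to 10.1 in the labelled knockout (0.68 to 0.78 against 2.75 to 2.81 with LPS). With PBS *Siglech* carried this sum, at 1.12 ± 0.155 FPKM in wild type and 9.21 ± 0.669 in the labelled knockout. *Flt3*, *Zbtb46* and *Xcr1* had means of 0.137 FPKM or less there. The part of these markers was likewise not tested.

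The IFIT members lie together on chromosome 19 and the IFITM members together on chromosome 7. In the coordinates of the tables the IFIT members run from 34528094 to 34627409 in the order *Ifit2*, *Ifit3*, *Ifit3b*, *Ifit1*, and the IFITM members from 140534750 to 140597837 in the order *Ifitm2*, *Ifitm1*, *Ifitm3*, *Ifitm6*. The labels list mm10, but the start in the table minus that of RefSeq on GRCm38.p6 was -22618 to -22160 bases on chromosome 19 and -420295 to -420087 on chromosome 7, so the build of the tables is unsure. The transcripts of *Ifit3* and *Ifit3b* were identical at 98.0% of 1697 aligned bases, and 18.5% of the 150-base stretches of *Ifit3* and 16.0% of those of *Ifit3b* occurred in the other, so the split of reads between them is uncertain. No other pair of members of a family shared a stretch of that length.

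Promoters are shown because most IFIT members moved together. Sequences are from RefSeq on GRCm38.p6, read 5′ to 3′ on the strand of the gene, and capitals mark matches to the ISRE core GAAANNGAAA on either strand. In the 250 bases before the start this core was found in 2.98% of 32851 mouse promoters. It was present in *Ifit1*, *Ifit3*, *Ifit3b* and *Ifitm2*, and *Ifit1*, *Ifit3* and *Ifit3b* each held the same pair of matches in the same order. They lay from -104 to -95 and -85 to -76 in *Ifit1*, from -156 to -147 and -122 to -113 in *Ifit3*, and from -188 to -179 and -154 to -145 in *Ifit3b*.
*Ifit1*, chr19:34640739-34640888, plus strand: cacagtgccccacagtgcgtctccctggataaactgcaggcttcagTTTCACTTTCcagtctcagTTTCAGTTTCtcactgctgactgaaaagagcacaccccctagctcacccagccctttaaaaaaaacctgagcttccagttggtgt
*Ifit3*, chr19:34583279-34583528, plus strand: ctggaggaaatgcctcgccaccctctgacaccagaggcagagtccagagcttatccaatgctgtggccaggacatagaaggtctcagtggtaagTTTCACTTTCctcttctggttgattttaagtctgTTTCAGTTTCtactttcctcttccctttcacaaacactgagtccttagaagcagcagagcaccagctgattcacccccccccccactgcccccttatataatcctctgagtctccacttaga
*Ifit3b*, chr19:34607707-34607956, plus strand: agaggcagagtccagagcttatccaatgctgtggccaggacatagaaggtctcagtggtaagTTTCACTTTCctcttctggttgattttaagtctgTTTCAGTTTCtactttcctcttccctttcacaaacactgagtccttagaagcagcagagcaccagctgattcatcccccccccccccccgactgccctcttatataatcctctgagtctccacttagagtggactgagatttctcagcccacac
*Ifitm2*, chr7:140955962-140956061, minus strand: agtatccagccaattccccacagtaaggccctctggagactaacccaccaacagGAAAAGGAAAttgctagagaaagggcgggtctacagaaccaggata
*Ifitm3*, chr7:141010702-141010729, minus strand: ctgaGAAACCGAAActgccgcagaaagg

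The *Ifitm2* match lay from -46 to -37. *Ifitm3* had no match before its start and matches from 3 to 12 and from 20 to 29 after it, of which the second is printed. These were seen when the window was extended to 50 bases after the start, where 3.44% of promoters held the core, an extension chosen after the promoters had been read. *Ifit2*, at either of its annotated starts, *Ifitm1* and *Ifitm6* held no match in these windows. The gamma-activated sequence (GAS) pattern TTCNNNGAA occurred in *Ifit2*, from -241 to -233, and in *Ifitm6*, from -10 to -2, and in 7.02% of all promoters. The kappa B pattern GGGANNNNCC occurred in *Ifit2*, from -247 to -238 and so overlapping the GAS match, and in *Ifitm3*, from -116 to -107, and in 17.6% of all promoters. A match is a description of letters and shows no binding.

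With PBS, the families stood at different levels in wild-type cells. *Ifitm3* and *Ifitm2* were among the most abundant messenger RNAs, with *Ifitm3* at 484 ± 28.8 FPKM (mean ± SD, n = 3, as for all means below) in RAW264.7 and 455 ± 47.6 in BMDMs, rank 87 and rank 55 of all genes above 0. *Ifitm2* stood at 271 ± 9.07 FPKM in RAW264.7 and 189 ± 6.76 in BMDMs. FPKM is per length, so genes can be compared within a table, but the tables were made separately, and values of both cell types are set side by side without a test. The IFIT members were low in RAW264.7 with PBS, from 0.0233 ± 0.0208 FPKM for *Ifit3b* (0 to 1 count per library) to 1.89 ± 0.129 for *Ifit2* (100 to 110 counts). In BMDMs they were already present, at 9.05 ± 1.32 FPKM for *Ifit3b*, 14.99 ± 1.98 for *Ifit1*, 50.7 ± 5.25 for *Ifit2* and 57.2 ± 9.60 for *Ifit3*. *Ifitm1* was the lowest IFITM member in both, at 0.173 ± 0.0851 FPKM in RAW264.7 and 1.02 ± 0.310 in BMDMs. *Ifitm6* was at 12.1 ± 1.5 FPKM in RAW264.7 and at 1.60 ± 0.183 in BMDMs.

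LPS raised all 4 IFIT members in wild-type cells of both types, while the IFITM members rose less or were not called. Differences are log2 fold changes of FPKM + 0.1 from limma with their standard error, and a gene was called where the Benjamini-Hochberg adjusted p was under 0.05 and the fold change at least 1.5. In wild-type BMDMs 7 of 8 members were called higher, against 7.94% of the 26973 genes tested. In wild-type RAW264.7 5 of 8 were called higher, against 5.80% of 26740 genes. The median change of expressed genes (mean of at least 1 FPKM) was -0.73 in BMDMs and -0.21 in RAW264.7, a shift that came to 0.06 and 0.03 when libraries were scaled by median ratios, so every change with LPS lies higher by about that shift relative to the other genes. In bulk samples such as these, fewer cells of a type and less RNA per cell cannot be told apart.

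In wild-type BMDMs *Ifit2* became the most abundant member. It went from 49.0, 56.6 and 46.5 FPKM with PBS to 2525, 2506 and 2537 with LPS, a log2 fold change of 5.64 ± 0.067 (adjusted p = 9.30e-12), and stood at rank 14 of all genes. *Ifit1* went from 14.3, 17.2 and 13.4 FPKM to 1247, 1201 and 1216, a change of 6.35 ± 0.092 (adjusted p = 2.28e-11). The libraries of the groups lay far apart for both genes. *Ifit3* went from 55.5, 67.5 and 48.5 FPKM to 823, 740 and 739 (3.76 ± 0.12, adjusted p = 2.22e-09), and *Ifit3b* from 9.23, 10.3 and 7.65 to 115, 105 and 104 (3.57 ± 0.12, adjusted p = 2.81e-09). The 4 IFIT members together took 0.0357% ± 0.0045 of all counts with PBS and 1.47% ± 0.0181 with LPS, of which *Ifit2* alone made up 0.991%.

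In wild-type RAW264.7 the IFIT members rose from nearly nothing. *Ifit1* had 2, 23 and 8 counts with PBS (0.06, 0.54 and 0.23 FPKM) and 71.97, 76.5 and 71.0 FPKM with LPS, a change of 7.82 ± 0.40 (adjusted p = 4.52e-07). *Ifit3* had 7, 11 and 3 counts with PBS and 934, 1014 and 1001 with LPS (6.83 ± 0.27, adjusted p = 8.29e-08), and *Ifit3b* had 1, 1 and 0 counts and 206, 297 and 269, for which no fold is given because so few counts carry it. *Ifit2*, with 100 to 110 counts per library with PBS, went from 1.98, 1.74 and 1.94 FPKM to 40.1, 38.4 and 37.5 (4.29 ± 0.11, adjusted p = 6.48e-09). Fitted folds of genes this low depend on the added 0.1. The order of the members with LPS also differed between the cell types, *Ifit1* standing above *Ifit3* and *Ifit2* in RAW264.7 and *Ifit2* above *Ifit1* and *Ifit3* in BMDMs. In wild-type RAW264.7 with LPS the libraries of *Ifit2* (37.5 to 40.1 FPKM) and *Ifit3* (39.5 to 41.8) overlapped.

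**Figure D1:**
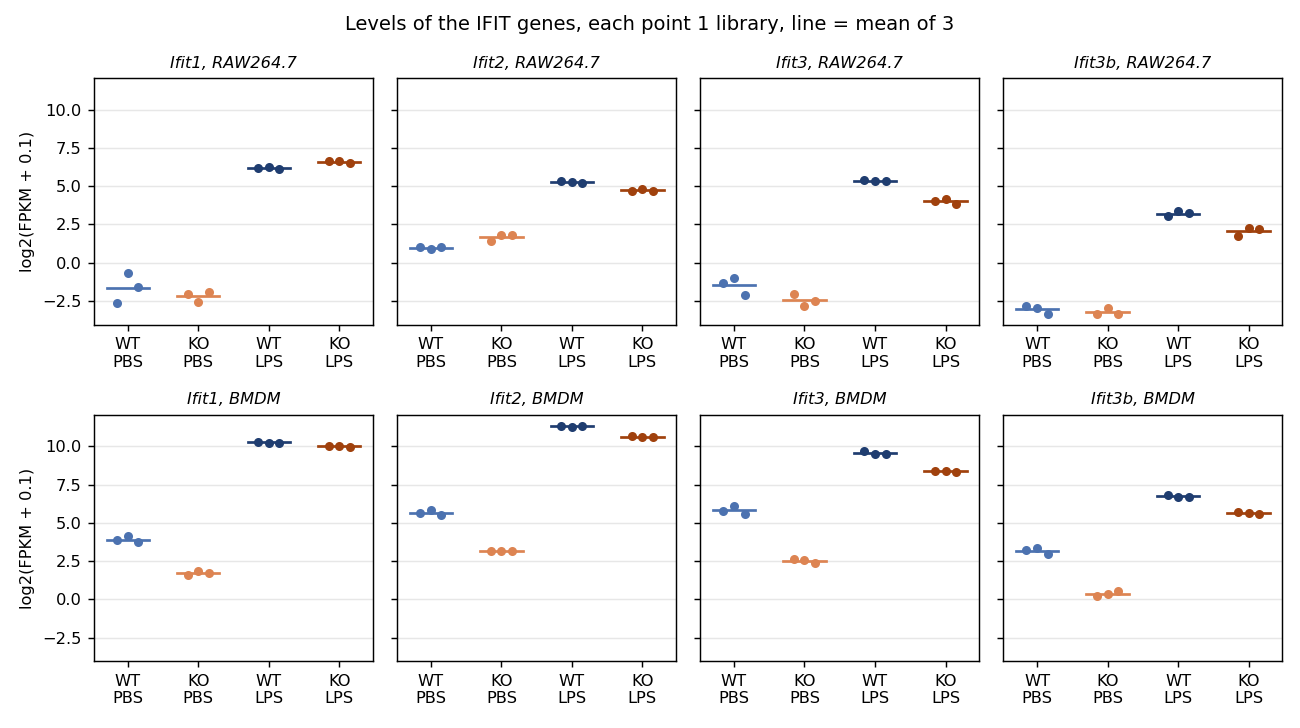
Levels of the 4 IFIT genes as log2(FPKM + 0.1) in RAW264.7 (top) and BMDMs (bottom), with 1 point per library and a line at the mean of the 3 libraries of wild type (WT) and labelled knockout (KO) with PBS or LPS. In BMDMs with PBS all 3 knockout libraries lie below all 3 wild-type libraries for every IFIT gene, and in RAW264.7 the labelled knockout libraries lie above wild type for *Ifit2* with PBS (2.55 to 3.47 against 1.74 to 1.98 FPKM) and for *Ifit1* with LPS (92.3 to 99.5 against 71.0 to 76.5 FPKM).

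Among the IFITM members, *Ifitm3* rose with LPS in both wild-type cell types. It went from 436, 509 and 419 FPKM to 1088, 926 and 967 in BMDMs (1.13 ± 0.081, adjusted p = 8.12e-07) and from 517, 469 and 465 to 1332, 1372 and 1423 in RAW264.7 (1.51 ± 0.24, adjusted p = 0.00114). *Ifitm2*, its neighbour in sequence and in level, rose in BMDMs from 181 to 194 FPKM up to 280 to 289 (0.59 ± 0.06, adjusted p = 1.36e-05) and was not called in RAW264.7 (260 to 277 against 298 to 320 FPKM, 0.20 ± 0.17, adjusted p = 0.504). The call in BMDMs sat on the 1.5-fold limit and held under 20 of 25 alternatives (0.20 to 1.39 over all 25). It was lost with a pseudocount of 1, TPM or quantile normalization. It was also lost without wild-type PBS replicate 3 or LPS replicate 1 (0.56 and 0.57). *Ifitm1* rose in BMDMs from 1.36, 0.75 and 0.96 FPKM to 4.11, 4.28 and 3.56 (1.89 ± 0.19, adjusted p = 1.20e-05), and in RAW264.7 it had 2 to 4 counts with PBS and 4 to 9 with LPS, too few to show a difference (adjusted p = 0.216).

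*Ifitm6*, the least studied of the members, was the exception. In wild-type BMDMs its level was 1.54, 1.46 and 1.81 FPKM with PBS and 1.03, 1.21 and 1.04 with LPS (-0.51 ± 0.10, adjusted p = 0.00199, under 1.5-fold), and the sign turned under median-ratio scaling (0.24), so no direction is given. In wild-type RAW264.7 it was at 13.7, 10.7 and 11.9 FPKM with PBS and 21.5, 20.6 and 21.2 with LPS, groups that did not overlap but a difference that was not called (0.81 ± 0.35, adjusted p = 0.139). The rise was called under 7 of 26 alternatives, with changes from 0.73 to 1.05 over all 26. Among these were edgeR, DESeq2, a pseudocount of 1 and a fit of only the libraries compared. Another was edgeR without replicate 1 of the labelled knockout with PBS. The others were limma without replicate 1 or replicate 2 of that group (adjusted p = 0.0211 and 0.0385). Those libraries enter here only through the shared spread.

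In BMDMs with PBS the *Olfml3* knockout libraries had less RNA of all 4 IFIT members and of *Ifitm3* and *Ifitm6*. These 6 of 8 members were called lower, against 0.916% of genes tested, and no member was called higher. The median log2 fold change of the members was -2.15, and that of all genes tested 0.01. The calls of these 6 members held under each of the 25 alternatives tried in BMDMs.

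*Ifit3* fell most. It stood at 55.5, 67.5 and 48.5 FPKM in wild type and at 5.99, 5.94 and 5.01 in the knockout, a log2 fold change of -3.31 ± 0.12 (adjusted p = 3.65e-07). *Ifit3b*, its near copy, went from 7.65 to 10.3 FPKM down to 1.08 to 1.38 (-2.80 ± 0.12, adjusted p = 8.59e-07). *Ifit3b* held 15.4% of the counts of the pair in wild type (95% Wilson interval 14.6 to 16.2) and 19.4% in the knockout (16.7 to 22.4), intervals that cover counting error only. *Ifit2* stood at 49.0, 56.6 and 46.5 FPKM in wild type and at 8.98, 8.88 and 8.82 in the knockout (-2.49 ± 0.067, adjusted p = 6.85e-08). *Ifit1* stood at 14.3, 17.2 and 13.4 FPKM and at 2.88, 3.44 and 3.18 (-2.20 ± 0.092, adjusted p = 9.15e-07). The libraries of wild type and knockout did not overlap for any of the 4 IFIT genes.

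*Ifitm3* stood at 436, 509 and 419 FPKM in wild type and at 106, 104 and 105 in the knockout (-2.11 ± 0.081, adjusted p = 5.46e-07). *Ifitm6* stood at 1.54, 1.46 and 1.81 FPKM and at 0.62, 0.58 and 0.62 (-1.26 ± 0.10, adjusted p = 1.08e-04), on 29 to 36 counts in wild type and 10 to 12 in the knockout. The remaining IFITM members did not follow. *Ifitm2*, whose transcript was identical to that of *Ifitm3* at 79.04% of aligned bases, stood at 194, 191 and 181 FPKM and at 159, 177 and 159 (-0.19 ± 0.06, adjusted p = 0.141), and *Ifitm1* at 0.75 to 1.36 and 0.69 to 0.77 (-0.38 ± 0.19, adjusted p = 0.416).

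With LPS, fewer members differed in BMDMs. *Ifit2*, *Ifit3* and *Ifit3b* were called lower in the knockout, 3 of 8 members against 1.53% of genes tested. *Ifit3* stood at 823, 740 and 739 FPKM in wild type and at 336, 336 and 314 in the knockout (-1.22 ± 0.12, adjusted p = 1.46e-04), *Ifit3b* at 104 to 115 and 47.8 to 53.1 (-1.09 ± 0.12, adjusted p = 2.32e-04), and *Ifit2* at 2506 to 2537 and 1538 to 1607 (-0.68 ± 0.067, adjusted p = 1.57e-04). *Ifit1* did not pass, at 1201 to 1247 FPKM and 1012 to 1037 (-0.25 ± 0.092, adjusted p = 0.102), although its libraries did not overlap. *Ifitm3* had an adjusted p of 0.00411 at a fold under the limit (926 to 1088 against 719 to 733 FPKM, -0.45 ± 0.081), and it was called under median-ratio scaling (-0.60), with edgeR (-0.60) and with DESeq2 (-0.61). *Ifitm1* (0.39 ± 0.19), *Ifitm2* (0.07 ± 0.06) and *Ifitm6* (-0.15 ± 0.10) were not called. Expressed genes had a median of 0.14 in this comparison.

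**Figure D2:**
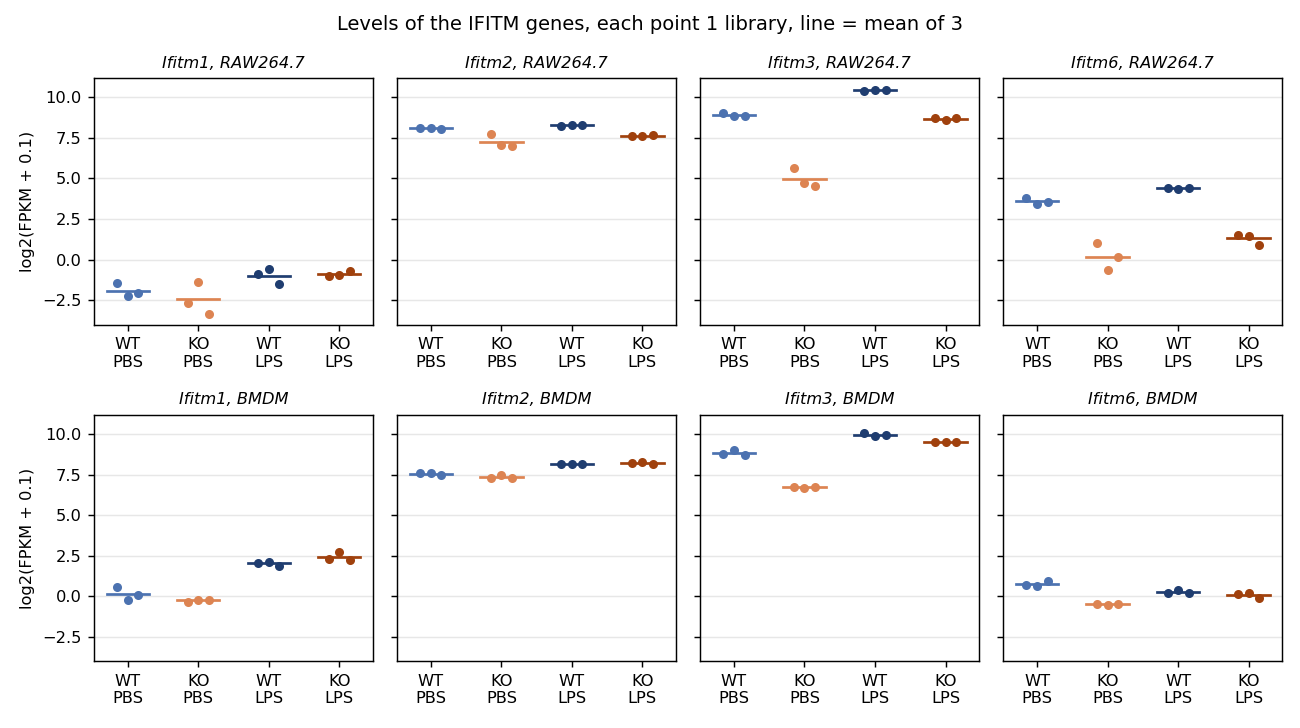
Levels of the 4 IFITM genes as log2(FPKM + 0.1), drawn like those of the IFIT genes. *Ifitm2* is high in every group. *Ifitm3* is far lower in labelled knockout RAW264.7 given PBS (33.3 ± 15.3 FPKM) than in wild type (484 ± 28.8). Among the 3 libraries of that labelled knockout group, replicate 1 (212 FPKM of *Ifitm2* and 50.8 of *Ifitm3*) lies nearest to wild type.

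On the log2 scale, the knockout effect in BMDMs was smaller with LPS than with PBS for 6 members. This difference of differences, tested as an interaction, was positive and called for *Ifit3* (2.09 ± 0.17, adjusted p = 1.70e-04), *Ifit1* (1.95 ± 0.13, adjusted p = 5.87e-05), *Ifit2* (1.81 ± 0.095, adjusted p = 1.52e-05), *Ifit3b* (1.71 ± 0.16, adjusted p = 4.08e-04), *Ifitm3* (1.66 ± 0.11, adjusted p = 6.72e-05) and *Ifitm6* (1.11 ± 0.15, adjusted p = 0.00243). A positive interaction was called for 1.91% of genes tested. *Ifitm6* was not called by DESeq2 (adjusted p = 0.106). The interaction of *Ifitm1* (0.78 ± 0.27, adjusted p = 0.146) and *Ifitm2* (0.27 ± 0.085, adjusted p = 0.112) was not called.

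The same values read from the side of LPS show a larger rise on the log2 scale in knockout BMDMs, which started lower with PBS. In FPKM the IFIT members rose by less in the knockout than in wild type. The rise was 1024 against 1206 for *Ifit1*, 1565 against 2471 for *Ifit2*, 323 against 710 for *Ifit3* and 49.3 against 98.95 for *Ifit3b*. *Ifitm1*, *Ifitm2* and *Ifitm3* rose by more in FPKM as well. All 8 members were called higher with LPS in the knockout, against 8.02% of genes tested. *Ifit1* rose from 3.17 ± 0.280 to 1027 ± 13.0 FPKM (8.30 ± 0.092 on the log2 scale, with 6.35 in wild type), *Ifit2* from 8.89 ± 0.0808 to 1574 ± 34.7 (7.45 ± 0.067, with 5.64), *Ifit3* from 5.65 ± 0.552 to 329 ± 12.5 (5.84 ± 0.12, with 3.76) and *Ifit3b* from 1.21 ± 0.155 to 50.6 ± 2.69 (5.28 ± 0.12, with 3.57). *Ifitm3* rose from 105 ± 1.07 to 727 ± 6.88 FPKM (2.79 ± 0.081, with 1.13), *Ifitm1* from 0.740 ± 0.0436 to 5.30 ± 1.03 (2.67 ± 0.19, with 1.89) and *Ifitm2* from 165 ± 9.92 to 298 ± 16.1 (0.85 ± 0.06, with 0.59). *Ifitm6* went from 0.607 ± 0.0231 to 0.977 ± 0.121 FPKM (0.60 ± 0.10), a call lost without knockout PBS replicate 2 or LPS replicate 1 or 2 (0.54 to 0.57). The IFIT members took 0.00556% ± 0.000105 of the counts of knockout BMDMs with PBS and 0.958% ± 0.0191 with LPS.

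**Figure D3:**
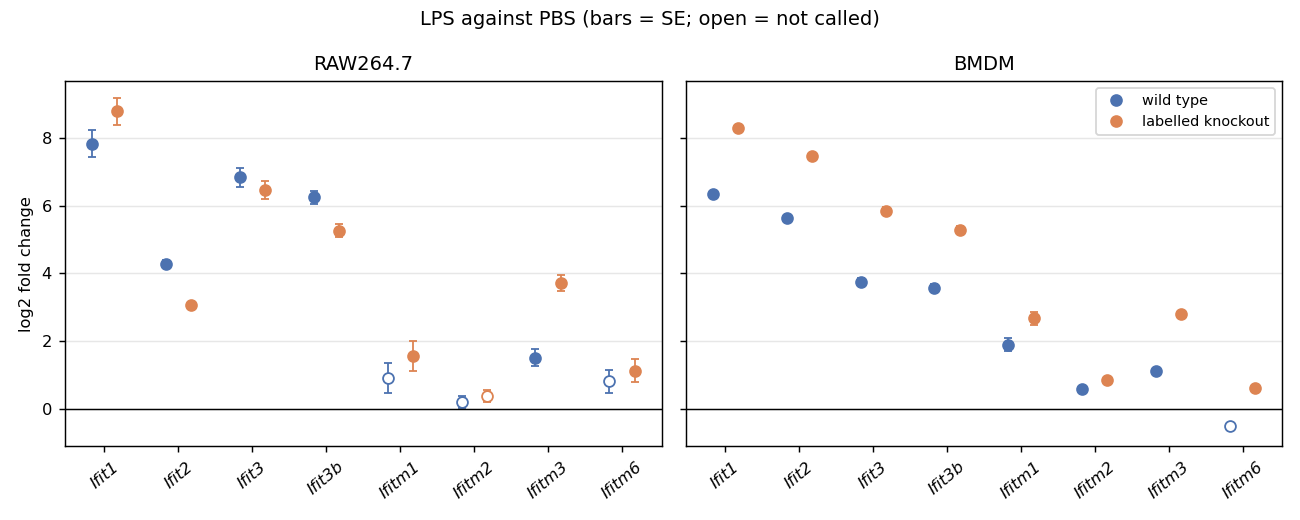
Log2 fold change with LPS against PBS of the 8 members in wild type and labelled knockout, with standard errors, and open circles for members not called. In BMDMs the knockout lies above wild type for all 8 members, for example at 8.30 against 6.35 for *Ifit1* and at 0.60 against -0.51 for *Ifitm6*, and in RAW264.7 it lies above for *Ifitm3* (3.71 against 1.51) and below for *Ifit2* (3.05 against 4.29).

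In RAW264.7 the labelled knockout differed from wild type in members of both families. With PBS *Ifitm3*, *Ifitm6* and *Ifitm2* were called lower, and of the IFIT members *Ifit3* was called lower and *Ifit2* higher. These 5 of 8 members compare with 8.55% of the genes tested in either direction, and the 4 lower ones with 3.77%. Without replicate 1 labelled knockout with PBS, the same 5 members were called, against 20.8% of genes tested. The macrophage marker sum moved with this comparison (3340 to 3400 against 1140 to 1420 FPKM), mostly through *Lyz2*.

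*Ifitm3* stood at 517, 469 and 465 FPKM in wild-type RAW264.7 with PBS and at 50.8, 26.0 and 22.9 in the labelled knockout, the first of these in the replicate that stood apart. The log2 fold change was -3.95 ± 0.24 (adjusted p = 8.19e-06), and -4.30 without that replicate. *Ifitm6* stood at 13.7, 10.7 and 11.9 FPKM and at 1.94, 0.55 and 1.00 (-3.42 ± 0.35, adjusted p = 2.25e-04, and -3.84 without the replicate). *Ifitm2* stood at 274, 277 and 260 FPKM and at 212, 132 and 126 (-0.83 ± 0.17, adjusted p = 0.0143, and -1.07 without it). In all 3 genes the replicate that stood apart was the highest of its group. The *Ifitm2* call was lost without wild-type PBS replicate 1 or 2 or labelled knockout PBS replicate 2 or 3 (adjusted p = 0.0519 to 0.0594). *Ifitm1* had 2 to 4 counts and 0 to 5, and no difference was detectable at this depth (adjusted p = 0.487).

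*Ifit2* stood at 1.98, 1.74 and 1.94 FPKM in wild type and at 2.55, 3.34 and 3.47 in the labelled knockout (0.69 ± 0.11, adjusted p = 0.00494, and 0.82 without the replicate that stood apart), and it was the one member called higher. The call was lost where the fit held only the 6 libraries of the groups compared (adjusted p = 0.0865) and, by fold, with a pseudocount of 1 or quantile normalization (0.51 in both). *Ifit3* had 7, 11 and 3 counts and 4, 1 and 2 counts (-0.97 ± 0.27, adjusted p = 0.0482, and -1.16 without that replicate), groups that overlapped, and its call was lost on leaving out any library other than wild-type PBS replicate 3 and labelled knockout PBS replicate 1 (adjusted p = 0.0676 to 0.168). *Ifit1* (2 to 23 counts against 3 to 6) and *Ifit3b* (0 to 1 in both) were not called, and these counts could not have shown a moderate difference. *Ifit1* was called lower under 2 of 26 alternatives, DESeq2 and edgeR without the replicate that stood apart. Its change ranged from -1.4 to -0.06 over all 26.

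With LPS, 5 of 8 members were called lower in labelled knockout RAW264.7, against 7.60% of genes tested, and none was called higher. *Ifitm6* stood at 21.5, 20.6 and 21.2 FPKM in wild type and at 2.75, 2.68 and 1.80 in the labelled knockout (-3.10 ± 0.35, adjusted p = 3.03e-04). *Ifitm3* stood at 1332, 1372 and 1423 FPKM and at 416, 396 and 419 (-1.74 ± 0.24, adjusted p = 0.00110). *Ifit3* stood at 41.8, 39.5 and 39.8 FPKM and at 16.2, 17.5 and 14.2 (-1.34 ± 0.27, adjusted p = 0.00747). *Ifit3b* at 8.05 to 10.1 and 3.22 to 4.63 FPKM (-1.14 ± 0.19, adjusted p = 0.00276) moved as its near copy did. Of 26 alternatives, the call of *Ifit3* held in 25 and that of *Ifit3b* in 24. A pseudocount of 0.01 lost both calls, and TPM lost that of *Ifit3b* (adjusted p up to 0.0615 for *Ifit3* and 0.280 for *Ifit3b*). *Ifitm2* stood at 298 to 320 FPKM and 193 to 202 (-0.65 ± 0.17, adjusted p = 0.0218), a call lost without wild-type LPS replicate 2 or 3 or any labelled knockout LPS library (adjusted p = 0.0544 to 0.0664), with no filter on low values (0.0615) and under TPM (-0.42) or quantile scaling (-0.19). The macrophage marker sum was again lower (3880 to 4010 against 1220 to 1280 FPKM).

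The other IFIT members went apart in RAW264.7 with LPS. *Ifit2* stood at 40.1, 38.4 and 37.5 FPKM in wild type and at 26.0, 27.5 and 25.6 in the labelled knockout (-0.55 ± 0.11, adjusted p = 0.00853, under 1.5-fold). *Ifit1* stood at 71.97, 76.5 and 71.0 FPKM and at 98.5, 99.5 and 92.3 (0.40 ± 0.40, adjusted p = 0.531), groups that did not overlap, in a fit whose spread for *Ifit1* came from the few counts with PBS. Its sign was thus opposite to that in BMDMs (-0.25), where it was not called either.

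**Figure D4:**
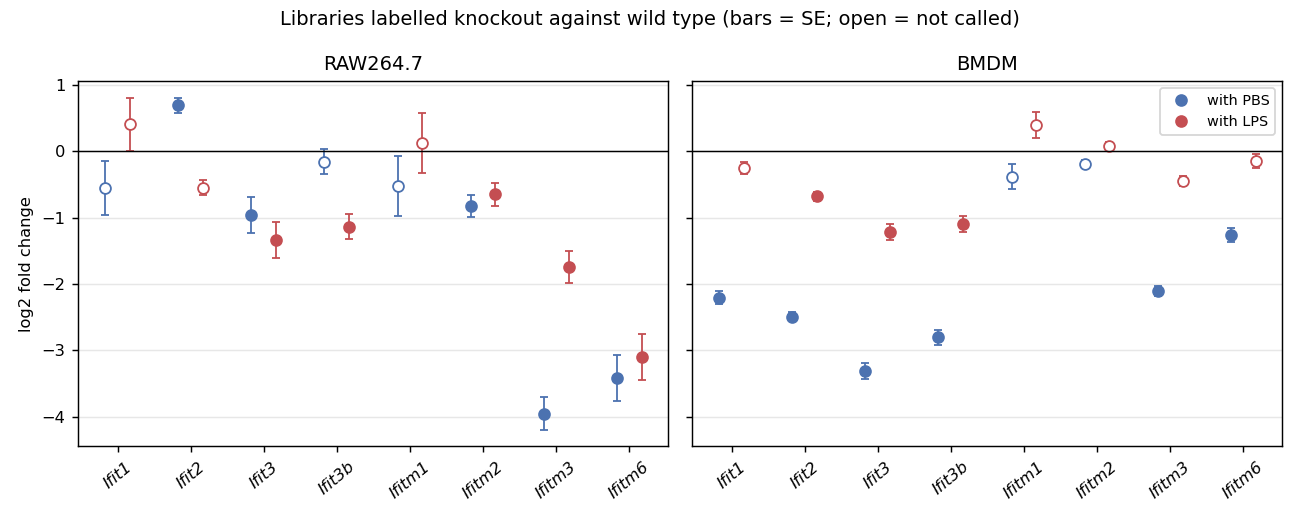
Log2 fold change between labelled knockout and wild type for the 8 members under each treatment (PBS or LPS), with standard errors, and open circles for members not called. In BMDMs the PBS values of the 4 IFIT genes lie between -3.31 and -2.20 and the LPS values between -1.22 and -0.25, while in RAW264.7 the lowest values are those of *Ifitm3* (-3.95 and -1.74) and *Ifitm6* (-3.42 and -3.10).

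The interaction in RAW264.7 was called for 2 of 8 members, against 1.95% of genes tested. It was positive for *Ifitm3* (2.20 ± 0.34, adjusted p = 0.0107), whose fall on the log2 scale was smaller with LPS. It was negative for *Ifit2* (-1.24 ± 0.16, adjusted p = 0.00450), which was higher with PBS and lower with LPS. Without the replicate that stood apart these interactions were 2.56 and -1.37. *Ifit2* was not called on TPM (adjusted p = 0.0547). *Ifitm6* did not have a called interaction (0.31 ± 0.49, adjusted p = 0.854), nor did the remaining 5 members. LPS against PBS in the labelled knockout gave calls for 7 of 8 members, all higher, against 7.45% of genes tested. *Ifitm3* rose from 33.3 ± 15.3 to 410 ± 12.1 FPKM (3.71 ± 0.24, adjusted p = 1.84e-06, and 4.07 without the replicate that stood apart), so that its level with LPS stayed below that of wild type with PBS (396 to 419 against 465 to 517 FPKM). *Ifit1* rose by 8.78 ± 0.40, *Ifit3* by 6.46 ± 0.27 and *Ifit2* by 3.05 ± 0.11, and without that replicate by 8.85, 6.65 and 2.92. *Ifitm6* (1.12 ± 0.35, adjusted p = 0.0359, and 1.55 without that replicate) and *Ifitm1* (1.55 ± 0.45, adjusted p = 0.0278, and 1.45 without it) passed on few counts, and both calls were lost under several alternatives, *Ifitm1* without labelled knockout PBS replicate 1 or 3 or any labelled knockout LPS library (adjusted p = 0.0578 to 0.0840) and *Ifitm6* without any of 8 libraries (adjusted p = 0.0527 to 0.111). *Ifitm2* was not called (0.38 ± 0.17) but was without the replicate that stood apart (0.62, adjusted p = 5.12e-05).

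Over both cell types, 4 members had a negative sign in every knockout comparison, *Ifit3*, *Ifit3b*, *Ifitm3* and *Ifitm6*, and *Ifit3* was called lower in all 4 comparisons, although in RAW264.7 with PBS on 1 to 11 counts per library and with the call lost on leaving out 10 of the 12 libraries. *Ifitm3* and *Ifitm6* were called lower in 3, without BMDMs with LPS, and *Ifit3b* in 3, without RAW264.7 with PBS. The comparisons of a cell type share no library, since PBS and LPS have their own wild-type libraries, but share the estimate of spread. Of the other family genes, *Ifit1bl1* was at 3.89 ± 0.110 FPKM in wild-type BMDMs with PBS, 1.38 ± 0.278 in the knockout, 78.7 ± 4.34 with LPS and 53.3 ± 1.14 in the knockout with LPS, and at or under 0.317 FPKM in the RAW264.7 groups. *Ifit1bl2* reached 2.52 ± 0.304 FPKM, *Ifitm5* 2.69 ± 0.990 and *Ifitm7* 0.947 ± 0.0723 in their highest groups, while *Ifitm10* stayed at 0.03 FPKM or less.

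Genes of the interferon response and of pathways beside it were read from lists of 45 genes. They held 7 ligand and receptor, 7 transcription, 4 feedback, 14 other effector, 8 cap and RNA sensing and 5 IFITM modification genes. In BMDMs with PBS 21 of 44 tested were called lower in the knockout and 1 higher, *Socs3*, a feedback inhibitor, against 0.916% lower and 0.901% higher of all genes tested. All 14 of the other interferon-induced effectors were lower, with a median of -2.32, among them the oligoadenylate synthetase family genes *Oasl2* (26.1 ± 3.64 to 2.19 ± 0.354 FPKM, -3.52 ± 0.12), *Oas3* (20.0 ± 2.33 to 1.70 ± 0.138, -3.47 ± 0.083) and *Oasl1* (1.75 ± 0.256 to 0.107 ± 0.0513, -3.19 ± 0.17). Of the transcription factors, *Irf7* went from 23.5 ± 3.44 to 2.05 ± 0.0800 FPKM (-3.45 ± 0.092, adjusted p = 6.85e-08), *Stat2* from 21.6 ± 1.70 to 8.72 ± 0.195 (-1.30 ± 0.06) and *Irf9* from 12.5 ± 0.613 to 6.62 ± 0.346 (-0.91 ± 0.053), and each of these was called lower. *Ifnb1* had 3 counts in the 3 wild-type libraries together and 0 in the knockout, and no difference was detectable at this depth.

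With LPS, 10 of 44 of these genes were called lower in knockout BMDMs and none higher, against 1.53% and 3.23% of all genes. *Ifnb1* stood at 6.21 ± 1.13 FPKM in wild type and 2.53 ± 0.196 in the knockout (-1.25 ± 0.25, adjusted p = 0.00652). The effectors had 5 of 14 called lower, with a median of -0.46. *Stat2* (0.23 ± 0.06), *Irf9* (-0.05 ± 0.053) and *Irf7* (-0.55 ± 0.092) were not called. Beside *Ifnb1*, the largest changes among genes of at least 1 FPKM were those of *Irf8*, a transcription factor of the macrophage lineage (171 ± 6.52 to 40.1 ± 2.50 FPKM, -2.09 ± 0.055), *Sting1*, an adaptor for cytosolic DNA sensing (16.9 ± 0.513 to 5.59 ± 0.392, -1.58 ± 0.057), and *Socs1*, a feedback inhibitor (32.4 ± 4.79 to 15.6 ± 2.09, -1.04 ± 0.20). The interaction was called for 21 of these genes upward and 3 downward, against 1.91% and 1.02% of all genes, with all 14 effectors upward.

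In RAW264.7 with PBS 15 of 42 tested genes of the lists were called lower in the labelled knockout and 3 higher, against 3.77% and 4.79% of all genes, and the effectors had 10 of 14 lower with a median of -1.42. *Irf7* went from 5.07 ± 0.472 to 0.450 ± 0.0173 FPKM (-3.23 ± 0.082) and *Irf9* from 4.19 ± 0.579 to 2.51 ± 0.236 (-0.71 ± 0.11), while *Stat2* (-0.04 ± 0.11) was not called and *Ifnb1* had no count. *Usp18*, which removes ISG15 and dampens the interferon receptor, went from 2.52 ± 0.463 to 0.203 ± 0.0874 FPKM, and *Isg15*, a ubiquitin-like protein, from 2.29 ± 0.265 to 0.300 ± 0.191. With LPS 12 of 42 were lower and 4 higher, against 7.60% and 9.73%. *Ifnb1* stood at 18.6 ± 0.139 FPKM in wild type and 22.3 ± 1.27 in the labelled knockout (0.26 ± 0.066, adjusted p = 0.0213, under 1.5-fold), and *Irf7* at 86.6 ± 2.70 and 49.2 ± 1.14 (-0.81 ± 0.082, called). *Rsad2*, which encodes viperin, had the largest change (61.1 ± 1.91 to 5.97 ± 0.405 FPKM, -3.34 ± 0.26), followed by *Cmpk2*, a mitochondrial nucleotide kinase (44.6 ± 0.645 to 8.40 ± 0.345, -2.39 ± 0.20), and *Mx1*, a dynamin-like antiviral GTPase (3.48 ± 0.117 to 0.827 ± 0.191, -1.97 ± 0.20).

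LPS raised all 14 effectors in each of the 4 LPS comparisons, with medians from 4.05 in wild-type BMDMs to 5.78 in knockout BMDMs, and the IFIT members had medians from 4.70 to 6.65 in the same comparisons of BMDMs. Of the 45 genes, 28 to 31 were called higher and 4 to 7 lower. Of all genes, 5.80% were called higher and 12.5% lower in wild-type RAW264.7, 7.45% and 14.6% in the labelled knockout, 7.94% and 32.5% in wild-type BMDMs, and 8.02% and 30.9% in knockout BMDMs. The ligand and receptor list had 2 to 4 higher, the cap and RNA sensing list 3 higher in each, and the list of enzymes that modify IFITM proteins, such as the palmitoyltransferase gene *Zdhhc20* and the ubiquitin ligase gene *Nedd4*, had 0 higher and 1 to 3 lower. *Zdhhc20* went from 10.7 ± 0.570 to 11.75 ± 0.368 FPKM in wild-type RAW264.7. In wild-type BMDMs it went from 19.8 ± 0.813 to 11.5 ± 0.333. Group means of *Nedd4* were at most 0.163 FPKM.

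Genes beside the members were read as well. Of 12 expressed neighbours within 200 kb of the IFITM members, 3 were called lower in the labelled knockout with PBS (*Sigirr*, *Hras* and *Rnh1*) and 7 with LPS, 1 of which was the family gene *Ifitm5*, and none was higher. Of all genes with a symbol that were expressed in either cell type, 6.34% were called lower with PBS and 13.7% with LPS. *Rnh1*, a ribonuclease inhibitor, went from 99.9 to 51.4 FPKM with PBS (-0.98, adjusted p = 0.00122) and from 68.2 to 32.9 with LPS (-1.05). In BMDMs the changes of these 12 neighbours lay between -0.34 for *Sigirr* and 0.57 for *Ifitm5*, both with LPS, and did not pass the limits of adjusted p and fold. In RAW264.7 with PBS, *Ifitm3* and *Ifitm6* differed by more than any of these 12 neighbours, by -3.95 and -3.42. At the IFIT locus, 6 neighbours were expressed, of which *Ifit1bl1* alone was called lower in BMDMs with PBS (-1.44, adjusted p = 6.29e-05, against 1.60% of expressed genes called lower), and *Ch25h*, which makes the antiviral sterol 25-hydroxycholesterol, was called higher in labelled knockout RAW264.7 with LPS (0.12 to 1.21 FPKM, against 14.3% of expressed genes called higher). *Lipa*, a lysosomal lipase beside *Ifit2*, stood at 249 FPKM in wild-type and 254 in knockout BMDMs with PBS (0.03, adjusted p = 0.818).

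**Figure D5:**
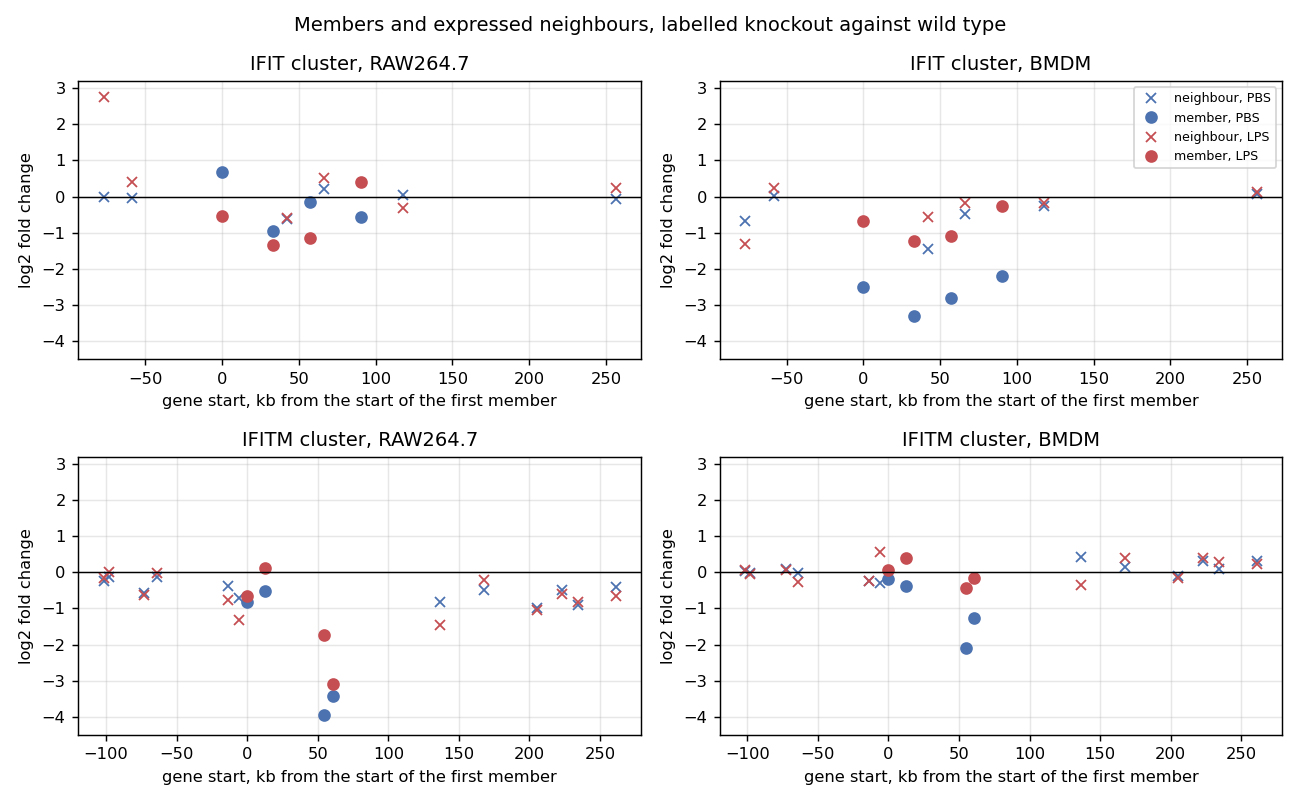
Log2 fold change of the labelled knockout against wild type for the members (circles) and the expressed neighbouring genes (crosses) of the IFIT cluster (top) and the IFITM cluster (bottom), by the distance of the gene start from that of the first member in kb. In BMDMs the IFIT members with PBS lie between -3.31 and -2.20 and the neighbour *Lipa* at 0.03, and in RAW264.7 *Ifitm3* and *Ifitm6* lie lowest while the neighbours *Rnh1*, *Hras* and *Sigirr* lie between -1.47 and -0.82.

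Across the 12 libraries of a cell type, the IFIT members followed each other closely, with Pearson correlations of log2(FPKM + 0.1) from 0.961 to 0.998 in BMDMs and from 0.965 to 0.992 in RAW264.7. The points fall into 4 groups, so these values describe group levels more than single libraries, and no p-value is given. *Ifitm3* was closer to *Ifit3* (0.980) than to *Ifitm2* (0.869) in BMDMs, and in RAW264.7 it was closer to *Ifitm2* (0.889) than to *Ifit3* (0.750). *Ifitm2* and *Ifitm6* were close in RAW264.7 (0.953) and not in BMDMs (0.217). The genes most like *Ifit1* among 10473 expressed genes in BMDMs were *Rsad2*, *Ifi205* and *Gm20559* (0.9999 to 0.9996), and those most like *Ifitm3* were *Oas3*, *H2-T24* and *Oas2* (0.9986 to 0.9955). *Ifit2* was closest to *Trim12c*, *Trim30a* and *Gm12250* (0.9995 to 0.9994) and *Ifitm6* to *Ly6e*, *Actr3* and *Ifi27l2a* (0.8685 to 0.8628). In RAW264.7, over 11212 genes, *Ifit1* was closest to *Ccl22*, *Fas* and *Col5a3* (0.999 to 0.997), *Ifit2* to *Slfn4*, *Mndal* and *Parp12* (0.9991 to 0.9965), *Ifitm3* to *Spp1*, *Ppic* and *Hspa5* (0.9965 to 0.99) and *Ifitm6* to *Cfp*, *Anxa2* and *Anxa5* (0.9907 to 0.9867). For these 4 members, no gene was among the 3 nearest in both cell types.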

How the data were processed

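RNA-seq of poly(A) RNA was deposited for 24 libraries, 12 from RAW264.7 cells and 12 from BMDMs, in 1 table per cell type. The authors' tables give read counts per gene and FPKM values. TPM values, used as an alternative, were computed here from FPKM. FPKM followed from count, exonic length and library total to within 1% for 99.879% (RAW264.7) and 99.507% (BMDMs) of values over 50 counts. Sequencing was paired-end, and the submitters' processing notes name mm10. For the aligner, counter, annotation and strandedness, nothing was given in the sources used here.

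Groups came from the sample titles, since the genotype tag contradicted the title in 12 of 24 samples. The main test was limma 3.58.1 (R 4.3.3) on log2(FPKM + 0.1), with the 4 group means of a cell type fitted over its 12 libraries and genes above 0 in at least 1 library kept. Calls needed a Benjamini-Hochberg adjusted p under 0.05 over all genes tested and a fold change of at least 1.5. A fold on this scale understates the change of low genes. edgeR 4.0.16 and DESeq2 1.42.0 were run on the deposited counts as alternatives, besides other pseudocounts, filters, scalings and the omission of each library. Genes without a symbol (2639 of 56691) held 0.102% of counts in RAW264.7 and 0.074% in BMDMs. The scripts were tested on simulated data. Confidence intervals are 95% Wilson intervals and cover counting error only. Named genes outside the members were the family genes, *Ifnb1*, *Stat2*, *Irf9* and *Irf7*, at most 3 further pathway genes per comparison by the largest called change, the 3 genes most correlated with a member, and neighbours within 200 kb. A further gene of this rule is not reported here. The members and lists were chosen with earlier results of these data known. Names chosen after their values were seen were *Socs3*, *Zdhhc20*, *Nedd4* and single macrophage and dendritic cell markers.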

Additional observations from a re-analysis of the deposited data

Results flagged for a closer look

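For 6 members in BMDMs the knockout effect differed between PBS and LPS by the interaction test of limma, which is why they are listed here. The interaction was 1.95 for *Ifit1*, 1.81 for *Ifit2*, 2.09 for *Ifit3*, 1.71 for *Ifit3b*, 1.66 for *Ifitm3* and 1.11 for *Ifitm6* on the log2 scale, with 3 libraries per group. In RAW264.7 the same test separated *Ifitm3* (2.20), whose labelled knockout libraries were lower with both treatments, and *Ifit2* (-1.24), whose labelled knockout libraries were higher with PBS and lower with LPS.

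Between the cell types, 3 members had groups whose FPKM values moved in opposite directions without overlap, and the difference between the cell types was not tested. *Ifit1* with LPS was higher in labelled knockout RAW264.7 (0.40) and lower in knockout BMDMs (-0.25), and neither was called. *Ifit2* with PBS was higher in labelled knockout RAW264.7 (0.69) and lower in knockout BMDMs (-2.49). *Ifitm6* had higher FPKM with LPS in wild-type RAW264.7 (0.81) and lower FPKM in wild-type BMDMs (-0.51), neither being called. The latter sign turned under other scalings, so no direction is given for it.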

How the results depend on the processing

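Of 2009 member values under the alternatives, 1900 kept their direction and their side of the limits. In RAW264.7 with PBS, 5 members were called, against 3 with a pseudocount of 1 or quantile normalization, 2 with only the libraries compared, and 3 to 5 on leaving out each library in turn. With LPS 5 were called, against 3 with a pseudocount of 0.01 or TPM. The interaction gave 2, against 4 with a pseudocount of 1 and 1 with TPM. The sign turned in values that were not called: the RAW264.7 interaction of *Ifit3* (-0.37) with a pseudocount of 0.01 (0.22), TPM (0.08), quantile normalization (0.02), edgeR (0.33), DESeq2 (0.41) and edgeR without labelled knockout PBS replicate 1 (0.88, an alternative chosen after seeing the data), that of *Ifitm6* (0.31) with a pseudocount of 1 (-0.07) and without labelled knockout PBS replicate 2 (-0.09, within -0.09 to 0.74 over all libraries left out), *Ifitm1* in labelled knockout RAW264.7 with LPS (0.12) with quantile normalization (-0.22) and without wild-type LPS replicate 3 (-0.13), *Ifitm2* in knockout BMDMs with LPS (0.07) with median ratios (-0.08), edgeR (-0.07) and DESeq2 (-0.08), and *Ifitm6* with LPS in wild-type BMDMs (-0.51) with median ratios (0.24), quantiles (0.51), edgeR (0.21) and DESeq2 (0.25). Beyond what each setting changes, the cause was not tested. Median-ratio scaling moved the share of higher genes among all called from 19.6% to 47.9% (LPS, wild-type BMDMs), 20.6% to 46.8% (LPS, knockout BMDMs), 67.9% to 43.4% (knockout, LPS, BMDMs), 65.1% to 46.8% (interaction, BMDMs), 31.7% to 49.7% (LPS, wild-type RAW264.7) and 33.8% to 51.7% (LPS, labelled knockout). In RAW264.7 the labelled knockout with PBS had 56% higher, against 42.7% with quantiles and 68.9% with TPM, and with LPS 56.1% against 75% with TPM.

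Deviations of same-numbered libraries correlated at -0.0395 to 0.0844 in RAW264.7 and -0.0579 to 0.0711 in BMDMs. Those of libraries with different numbers correlated at -0.0999 to 0.0783 and at -0.0627 to 0.1. These values do not set same-numbered libraries apart, and they cannot show whether such libraries shared a culture or mouse. With the replicate block 4 members were called in RAW264.7 with PBS, *Ifit3* not passing (adjusted p = 0.0615), and the other 9 counts were unchanged.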
